A study of Mus musculus with 6 samples.

Results

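The genes described here are 32 genes of sterol and fatty acid synthesis, listed by name as parts of the pathway. No measured value is in the rule, but the members were chosen with earlier results of these data known. Of the 32, 18 encode enzymes of the sterol branch, 6 encode regulators around the transcription factor SREBP, and 8 encode enzymes of the fatty acid branch. All 32 were found among the 10128 genes of the authors' deposited table. RNA was sequenced from mouse embryonic stem (ES) cells, which are pluripotent cells cultured from the early embryo, of 129/Ola background at passages 12 to 18. They derive from the line E14Tg2a and were grown in medium with serum and leukaemia inhibitory factor. The genotypes were Tex19.1+/-, with 1 intact copy of Tex19.1, and Tex19.1-/-, with none, each with 3 libraries. No library of wild-type cells belongs to the comparison, and the labels do not say whether a genotype is 1 clone or several, or whether its libraries came from separate cultures, so the p-values may measure technical spread only. Tex19.1 is found only in mammals and is active in pluripotent cells, the placenta and the germline; the design asks which transcripts differ in ES cells that lack it.

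The authors' deposited table gives for each gene 1 log2 fold change, the mean level as log2 CPM (read counts scaled to a common library total), a p-value and an adjusted p. Single libraries were not analysed here, so no spread between them can stand beside a fold change, and the depth is unknown. A gene is called at an adjusted p under 0.05 from the authors' edgeR comparison. A positive value is taken to mean a higher level in Tex19.1-/- cells, because Tex19.1 itself had the lowest value in the authors' deposited table, a log2 fold change of -6.92. All 10 pluripotency markers listed were measured, with mean levels from 192 CPM for Utf1 to 1570.0 CPM for Dppa5a. Of these 10, the authors' deposited table calls 3 higher (30%, against 25.2% of all genes) and 4 lower (40%, against 26.5%). Their median log2 fold change was -0.06. Of 13 measured markers of primitive and definitive endoderm, 12 were lower (92.3%, against 26.5% of all genes) and 1 was higher in the authors' deposited table. Their median log2 fold change was -2.08. No level per genotype is given, so summed levels here and below read the mean log2 CPM as midway between the genotypes. So computed, these markers summed to 998.8 CPM in Tex19.1+/- and 373.0 CPM in Tex19.1-/- cells, which is approximate for changes this large. The part of this shift in endoderm markers in the differences below was not tested. In such bulk samples, fewer cells of a type and less RNA per cell cannot be told apart.

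Cells build cholesterol from acetyl-CoA through mevalonate, isoprenoid diphosphates and squalene, and build fatty acids from the same acetyl-CoA through malonyl-CoA. SREBP proteins are made as precursors in the membrane of the endoplasmic reticulum. When sterols are scarce the escort protein Scap carries them to the Golgi, where they are cut, and the released part switches on genes of both branches. Insig proteins hold Scap back when sterols are plentiful, and Insig1 is itself an SREBP target. In many tissues Srebf2 acts mainly on sterol genes and Srebf1 mainly on fatty acid genes.

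Promoter sequences are shown for 3 genes, and whether their motifs bear on the fold changes was not tested. Promoters were taken from RefSeq (GRCm38.p6), 250 bases before to 50 after a start site, for the 25 members that had an entry. Fdps, Fdft1, Sqle, Stard4, Scd1, Scd2 and Fads1 had none. Both strands were searched for TCACNCCAC, the core of the sterol regulatory element bound by SREBP, for CCAAT, the box bound by NF-Y, a factor that works beside SREBP, and for the E-box CACGTG, and overlapping matches were each counted. The first promoter below was chosen because it holds the sterol regulatory element core, and the others, chosen after the motif counts were seen, because Insig1 and Lss had the smallest p-values among sterol and regulatory genes with a CCAAT box in a stretch of at least 150 bases before the GENCODE gene. Capitals mark every match, ATTGG being CCAAT on the other strand. Each is read 5′ to 3′ on the gene's strand, which is the plus strand for all 3. The stretches are chr13:119690101-119690350 for Hmgcs1, chr5:28071162-28071362 for Insig1 and chr10:76531355-76531587 for Lss.
Hmgcs1: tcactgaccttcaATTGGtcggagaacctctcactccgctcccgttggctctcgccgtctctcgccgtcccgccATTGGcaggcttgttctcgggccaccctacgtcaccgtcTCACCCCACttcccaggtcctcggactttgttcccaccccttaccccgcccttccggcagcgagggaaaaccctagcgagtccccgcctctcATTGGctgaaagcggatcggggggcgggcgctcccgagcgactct
Insig1: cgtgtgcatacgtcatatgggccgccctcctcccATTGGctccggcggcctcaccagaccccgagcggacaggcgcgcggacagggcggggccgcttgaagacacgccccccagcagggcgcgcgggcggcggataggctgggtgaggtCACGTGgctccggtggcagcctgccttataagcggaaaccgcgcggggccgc
Lss: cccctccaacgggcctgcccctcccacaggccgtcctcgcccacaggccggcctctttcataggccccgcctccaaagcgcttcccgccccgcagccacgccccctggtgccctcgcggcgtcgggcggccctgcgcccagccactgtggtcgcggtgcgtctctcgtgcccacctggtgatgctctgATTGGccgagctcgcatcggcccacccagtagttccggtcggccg

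In the Hmgcs1 stretch the sterol regulatory element core begins 137 bases before the start site, with CCAAT boxes at 237, 176 and 45 bases. The Insig1 stretch holds a CCAAT box 216 bases and an E-box 101 bases before the start. The Lss stretch holds a CCAAT box at 62 bases. Both stretches stop before the GENCODE gene, 49 (Insig1) and 17 (Lss) bases short of the RefSeq start from which positions are counted. Most members shared the CCAAT box: 20 of the 25 members with a promoter held it (80.0%), against 41.1% of all 27025 genes with a RefSeq promoter of this length. Sterol genes held it in 14 of 15 cases, regulators in 4 of 5 and fatty acid genes, Acly and Fasn, in 2 of 5. The E-box was found for 5 of 25 (20% against 8.09%), namely Dhcr7, Hsd17b7, Insig1, Sc5d and Scap. Hmgcs1 alone of the 25 held the TCACNCCAC core, which 1.44% of all genes with a promoter held. The box occurred in members of every direction: 12 of 15 members called higher held it, as did 3 of 5 called lower and 5 of 5 not called. No test was made of these shares. The 27025 genes go beyond the 10128 measured, and no share over the measured genes was computed. A gene counted if any of its promoters held the match.

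Most members were higher in Tex19.1-/- cells, by small amounts. Of the 32 genes, 26 were called in the authors' deposited table, 20 higher and 6 lower. Over all 10128 genes 51.7% were called, 25.2% higher and 26.5% lower; of the members 81.2% were called, 62.5% higher and 18.8% lower. None changed 2-fold, and the calls of Pmvk, Scap and Fasn were lost at an adjusted p under 0.01. The median log2 fold change of the members was 0.17, that of all genes 0.00.

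**Figure D1:**
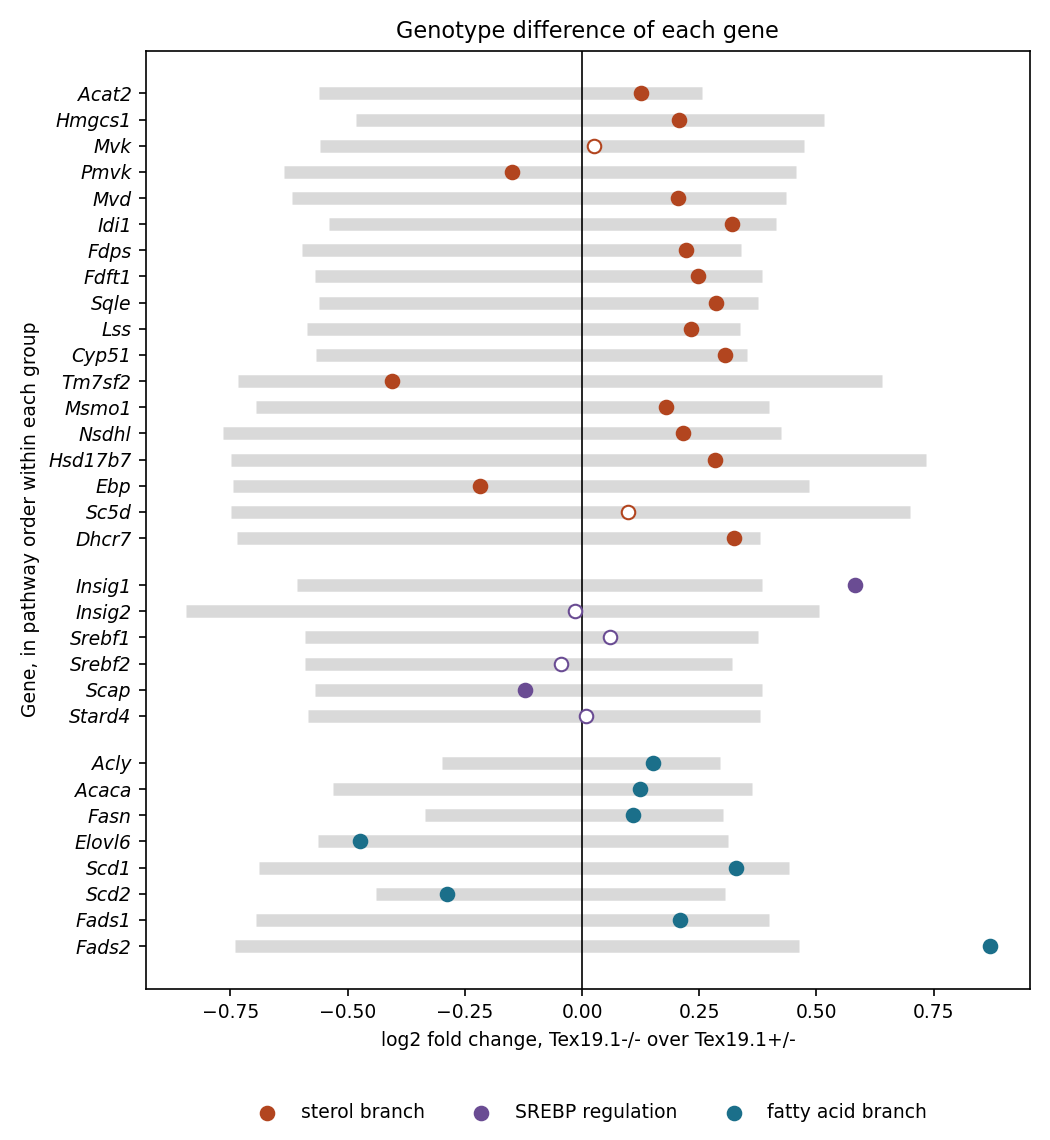
Log2 fold change of each of the 32 genes from the authors' deposited table, in pathway order within each group (points; filled where the adjusted p was under 0.05, open otherwise). Grey bars span the central 95% of log2 fold changes of the genes nearest in mean expression; Insig1 at 0.58 and Fads2 at 0.87 lie beyond their bars, and the other 30 genes lie within.

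Most genes of the sterol branch were higher in Tex19.1-/- cells. Of its 18 enzymes 13 rose (72.2%, against 25.2% of all genes), 3 fell (16.7%, against 26.5%) and 2 were not called. The median log2 fold change was 0.21, and the 13 that rose lay between 0.13 for Acat2 and 0.32 for Dhcr7 in the authors' deposited table. The middle 50% of the branch spanned 0.17 on the log2 scale, against 0.23 for all genes. Among the genes nearest in mean expression the 13 that rose stood between percentile 80.1 (Acat2) and percentile 96.4 (Idi1). None of the 18 lay outside the central 95% of those genes, a range that 5.69% of all genes fell outside.

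Of the 7 enzymes that lead from acetyl-CoA to farnesyl diphosphate, 5 rose, 1 fell and 1 was not called. Acat2, the thiolase that joins a pair of acetyl-CoA units, stood at 0.13 (adjusted p = 0.00396) and Hmgcs1, which makes HMG-CoA, at 0.21 (adjusted p = 1.16e-05), per the authors' deposited table. The mevalonate kinase gene Mvk was at 0.03 with an adjusted p of 0.746, and Pmvk, the next kinase, at -0.15 with an adjusted p of 0.0232 in the authors' deposited table. Mvd, the decarboxylase that acts next in the chain, rose by 0.20 in the authors' deposited table. Idi1, which interconverts the basic isoprenoid units, had the largest rise of the early enzymes, 0.32 (adjusted p = 2.15e-09), a level 24.9% higher in Tex19.1-/- cells by the authors' deposited table. Fdps, farnesyl diphosphate synthase, stood at 0.22 in the authors' deposited table. Reads of Fdps are the least certain of the set, because 75.8% of the stretches of 100 bases in its longest coding transcript also occur in other GENCODE transcripts, mainly those of the overlapping gene Gm43738.

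From squalene synthase on, 8 of 11 enzymes rose, 2 fell and 1 was not called, with a median of 0.23. Fdft1, squalene synthase and the first enzyme committed to sterols, stood at 0.25 and Sqle, the squalene epoxidase, at 0.29 in the authors' deposited table. Lss, which closes the rings to lanosterol, was at 0.23, and Cyp51, the lanosterol demethylase, at 0.30 in the authors' deposited table. These 4 consecutive steps rose by nearly the same amount, with adjusted p from 7.07e-09 for Cyp51 to 5.42e-07 for Fdft1 in the authors' deposited table. The 3 enzymes that together remove the paired methyl groups from the ring system rose as well, Msmo1 by 0.18, Nsdhl by 0.22 and Hsd17b7 by 0.28 in the authors' deposited table. The last reductase, Dhcr7, had the largest log2 fold change of the branch in the authors' deposited table, 0.32 (adjusted p = 3.61e-09).

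The exceptions lie in the late part of the branch too. Tm7sf2, a sterol reductase that acts after Cyp51, fell by 0.41 on the log2 scale in the authors' deposited table (adjusted p = 5.41e-08), the largest change in size of any sterol gene, so that its level dropped by 24.5%. Ebp, the sterol isomerase, fell by 0.22 in the authors' deposited table (adjusted p = 0.000234). Sc5d, the desaturase between Ebp and Dhcr7, was at 0.10 with an adjusted p of 0.22 in the authors' deposited table. Sc5d and Hsd17b7 had the lowest mean levels of the branch, 9.73 and 9.62 CPM, and Hmgcs1 the highest, 129 CPM. Per kilobase of exon the mean level was 37.1 CPM for Hmgcs1, 24.3 for Acat2 and 23.2 for Idi1, against 1.91 for Hsd17b7 and 1.999 for Sc5d. Tm7sf2 at 6.70 and Ebp at 9.98 CPM per kilobase were close to Dhcr7 (6.02), Nsdhl (8.90) and Lss (9.14), so genes that fell and genes that rose had overlapping levels.

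**Figure D2:**
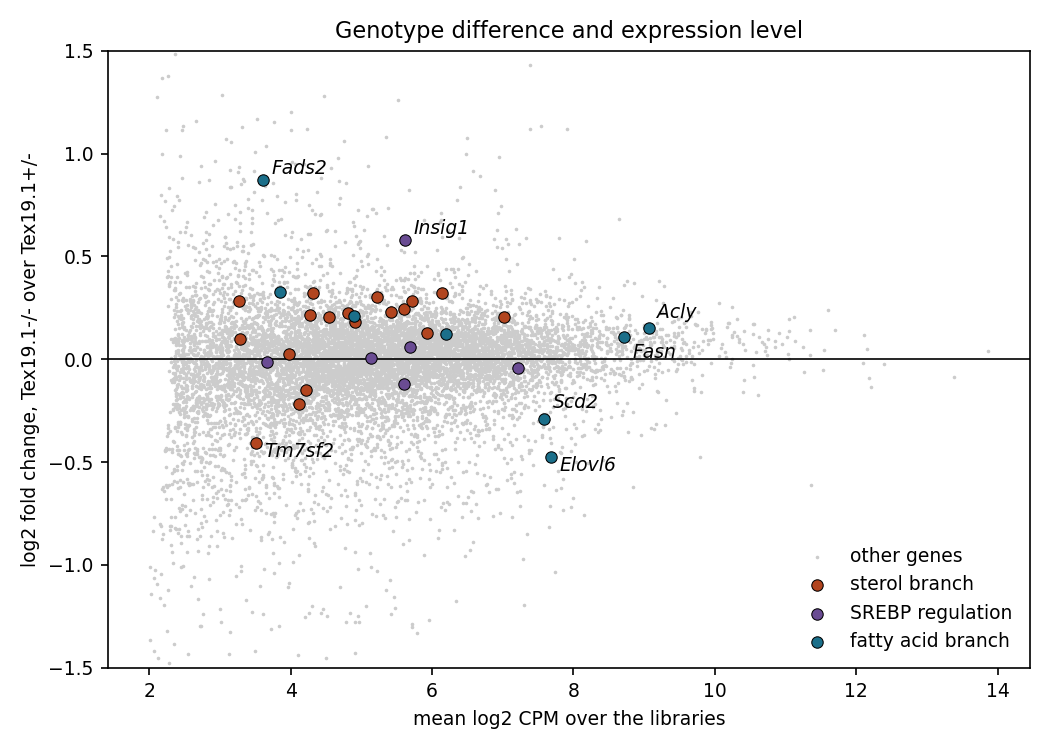
Log2 fold change (vertical axis) against mean log2 CPM (horizontal axis) in the authors' deposited table, for all genes with a change of at most 1.5 in size (grey) and the 32 members by group (colours). The 13 sterol genes that rose form a band between 0.13 and 0.32 across levels, while the highly expressed Elovl6 at -0.47 and Scd2 at -0.29 lie below 0.

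Among the regulators only Insig1 rose. Insig1, the SREBP target that retains Scap in the endoplasmic reticulum, stood at 0.58 in the authors' deposited table (adjusted p = 3.93e-33), a level 49.6% higher in Tex19.1-/- cells. It lay at percentile 99.7 of genes of like expression and was the 578th largest change in size of the 10128 genes. Scap, the escort of SREBP, fell by 0.12 on the log2 scale in the authors' deposited table (adjusted p = 0.0112). The transcripts of the SREBP factors themselves were not called: the authors' deposited table gives Srebf2 at -0.04 (adjusted p = 0.381) and Srebf1 at 0.06 (adjusted p = 0.275). From the authors' deposited table, Insig2, the paralog of Insig1, stood at -0.01 (adjusted p = 0.887), and Stard4, a sterol carrier and known SREBP target, at 0.01 (adjusted p = 0.917). The median of the 6 regulators was 0.00, and 2 of 6 called is a share of 33.3%, under the 51.7% of all genes.

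All genes of the fatty acid branch changed, and as in the sterol branch not all in 1 direction. All 8 genes were called, against 51.7% of all genes. Of the 8, 6 were higher (75%, against 25.2%) and 2 lower (25%, against 26.5%), with a median of 0.14. Their log2 fold changes ran from -0.47 to 0.87 in the authors' deposited table, and the middle 50% spanned 0.23, as for all genes. The 3 genes that make palmitate rose little. In the authors' deposited table Acly, which supplies cytosolic acetyl-CoA from citrate, stood at 0.15 (adjusted p = 0.000151), Acaca, the acetyl-CoA carboxylase, at 0.12 (adjusted p = 0.00256) and Fasn, fatty acid synthase, at 0.11 (adjusted p = 0.0374). Acly was the most abundant member, with a mean of 536 CPM and 116 CPM per kilobase of exon, followed per kilobase by Fasn at 41.98. Fasn lies on chromosome 11, 322 kilobases before Tex19.1 itself, with 2 measured genes between them, of which 1 was higher and 1 lower, and what this position contributes was not tested.

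The enzymes that elongate and desaturate fatty acids held the largest changes of the branch. Elovl6, which lengthens palmitate, fell by 0.47 on the log2 scale in the authors' deposited table (adjusted p = 5.32e-36), so that its level dropped by 28%. It stood at percentile 2.99 of genes of like expression. Fads2, the first desaturase in the synthesis of long polyunsaturated fatty acids, rose by 0.87 in the authors' deposited table (adjusted p = 7.88e-38) to a level 82.7% higher, at percentile 99.3 and as the 204th largest change in size of all genes. Fads1, the desaturase that acts after it, rose by 0.21 in the authors' deposited table (adjusted p = 2.07e-05). The stearoyl-CoA desaturases, which make monounsaturated fatty acids, went opposite ways: the authors' deposited table gives Scd1 at 0.33 (adjusted p = 3.38e-06) and Scd2 at -0.29 (adjusted p = 1.86e-11).

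The paralog pairs differed in level as well as in fold change. Scd2 was the main desaturase transcript, with a mean of 35.3 CPM per kilobase of exon against 2.99 for Scd1, an 11.8-fold difference in level. With the mean log2 CPM read as midway between the genotypes, the summed level of Scd1 and Scd2 was 225.6 CPM in Tex19.1+/- and 190.3 CPM in Tex19.1-/- cells, a log2 ratio of -0.25 that follows Scd2. Fads2 was the less abundant of its pair, at 3.86 CPM per kilobase against 8.62 for Fads1. Insig1 exceeded Insig2 in level, 18.1 against 4.29 CPM per kilobase. For Srebf2 and Srebf1 these levels were 29.2 and 12.0. The gap in log2 fold change was 0.66 between Fads2 and Fads1, 0.62 between Scd1 and Scd2, 0.60 between Insig1 and Insig2 and 0.10 between Srebf1 and Srebf2. Scd2 and Scd1 lie 87.6 kilobases apart on chromosome 19 and Fads2 and Fads1 81.1 kilobases apart on the same chromosome.

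**Figure D3:**
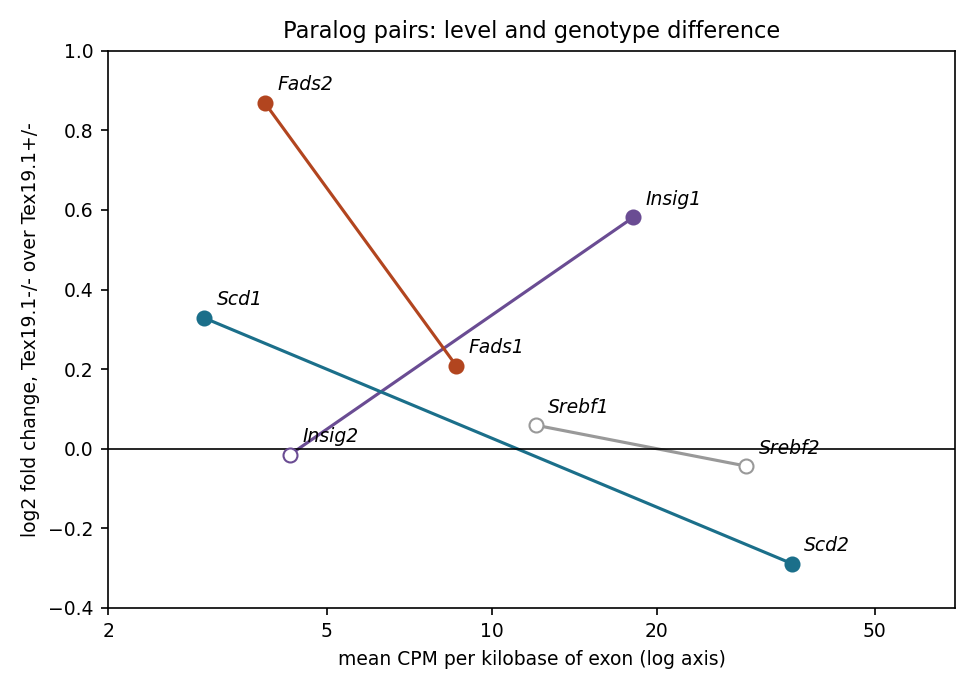
Log2 fold change (vertical axis) against mean CPM per kilobase of exon (horizontal log axis) for 4 paralog pairs from the authors' deposited table, each pair joined by a line (filled points called at adjusted p under 0.05, open points not called). Scd1 at 0.33 and Scd2 at -0.29 lie on opposite sides of 0 and differ 11.8-fold in level.

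Set side by side, the branches had similar shares called higher, 72.2% of sterol and 75% of fatty acid genes. Both lay above the 25.2% of all genes. The shares called lower were 16.7% of sterol and 25% of fatty acid genes, against 26.5% of all genes. The medians were 0.21 and 0.14, a difference of 0.07 that carries no test because single libraries were not analysed and genes are not replicates. The branches differed more in their makeup. With the same midway reading, summed sterol transcripts went from 602.7 CPM in Tex19.1+/- to 689.5 CPM in Tex19.1-/- cells, a log2 ratio of 0.19. Summed fatty acid transcripts were at 1490.5 and 1493.3 CPM, a log2 ratio of 0.00. In that sum the falls of Elovl6 and Scd2 offset the rises of Acly and Fasn. With a trend on transcript length and GC content subtracted the difference of the medians was 0.0151, and with the median of the 20 nearest genes on the chromosome subtracted it was 0.13.

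Chromosomal position was checked against the neighbours of each member. The median log2 fold change of the 20 measured genes nearest to each member ran from -0.24 to 0.11, and exceeded 0.1 in size for 2 members, Sc5d at -0.24 and Srebf1 at 0.11. Less that median, 9 of the 32 members moved by over 1.5 times or changed sign. Called genes among them were Acaca, at 0.04 in place of 0.12, Fads1, at 0.12 in place of 0.21, and Fasn, at 0.07 in place of 0.11. Sc5d was at 0.34 and Srebf1 at -0.05, both not called as deposited. Fdft1, on chromosome 14 from 63145150 to 63179578 (GRCm38, GENCODE M21), was at 0.21 less its neighbours' 0.04. The X-linked genes Ebp and Nsdhl went opposite ways, at -0.22 and 0.22 in the authors' deposited table. Counting may be shared for other members: Acaca shares 42.8% of its 100-base stretches with Gm5182, Acat2 35.3% with other genes, most of all its paralog Acat3, and Idi1 27.6%. Fdft1 overlaps exons of Ctsb on the opposite strand over 20.9% of its exon length and Hmgcs1 those of Gm48342 over 16%. The strand setting of the counting is not given in the sources used here, so these reads cannot be assigned. Without the 6 members that share at least 10% of their stretches, 8 of 13 sterol genes were higher and 3 lower with a median of 0.20. Of all genes 25.2% were higher and 26.5% lower.

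The genes that surround the branches are given with the shares of all genes called, 25.2% higher and 26.5% lower. Of 14 genes of the isoprenoid branch, which uses farnesyl and geranylgeranyl diphosphate for other ends, 3 rose (21.4%) and 4 fell (28.6%), shares near those of all genes, with a median of -0.01. The farnesyltransferase subunit genes Fntb and Fnta stood at -0.31 and 0.18 and Pggt1b, a subunit of the enzyme that adds the longer isoprenoid, at -0.25 in the authors' deposited table. Of 15 genes of SREBP processing and sterol-regulated protein degradation 7 fell (46.7%) and 2 rose (13.3%), with a median of -0.10. The ubiquitin ligase gene March6 was at -0.25, against 0.31 for Rnf145, a ligase of the same membrane, in the authors' deposited table.

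Of 20 measured genes of sterol transport and esterification 9 fell (45%, against 26.5% of all genes) and 2 rose, with a median of -0.10. Npc1, which releases cholesterol from lysosomes, stood at -0.37, the oxysterol-binding protein gene Osbpl8 at -0.40 and Lrpap1, a chaperone of lipoprotein receptors, at -0.34 in the authors' deposited table. Of 7 measured genes of LXR signalling and efflux 2 rose and 2 fell (28.6% each): the cholesterol exporter gene Abca1 was at -0.38, its relative Abcg1 at 0.27 and the nuclear receptor gene Rxra at -0.46 in the authors' deposited table. Of 23 other genes of fatty acid synthesis and elongation 7 rose and 7 fell (30.4% each), with a median of -0.01. Slc25a1, the carrier that exports citrate from mitochondria for Acly, was at 0.44 (adjusted p = 2.52e-26), while the elongation genes Hacd2 and Elovl7 were at -0.56 and -0.82 in the authors' deposited table.

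**Figure D4:**
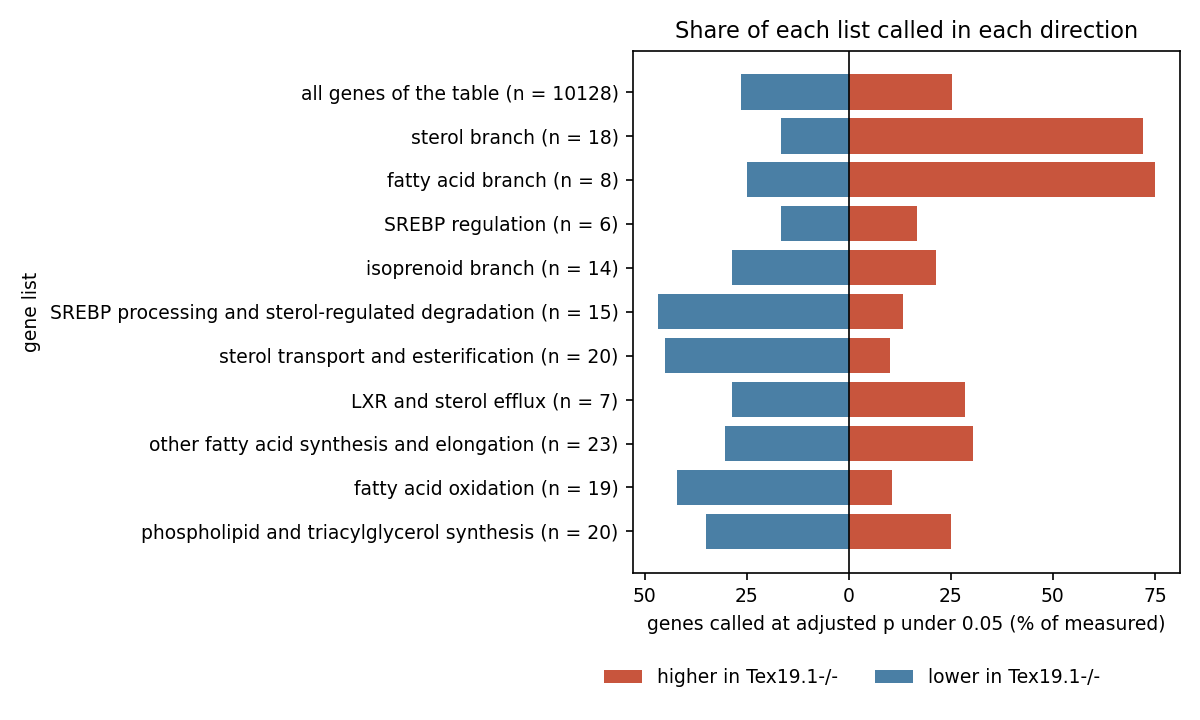
Share of measured genes that the authors' deposited table gives an adjusted p under 0.05, higher (right of 0) or lower (left of 0) in Tex19.1-/- cells, for all genes and for each list, with the number measured in brackets. The sterol and fatty acid branches reach 72.2% and 75% higher, against 25.2% of all genes and at most 30.4% in the lists of surrounding genes.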

How the data were processed

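RNA was measured in 6 libraries, 3 of each genotype, made with a stranded mRNA kit, per the labels' protocols. HTSeq 0.11.2, TopHat2 2.1.0, Trim Galore 0.4.1 and edgeR, with the build mm10, are listed in the submitters' processing notes without their roles. The annotation, low-count filter, strand setting and edgeR version are not stated in the sources used. Each gene has a log2 fold change, mean log2 CPM, p-value and adjusted p-value deposited by the authors, per the file headers. The lowest mean was 3.52 CPM; less abundant genes were not analysed here. Deposited adjusted p-values differ from Benjamini-Hochberg values recomputed here by at most 6.7e-05.

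Members and lists were chosen with earlier results of these data known. Every member is named; from each other list the 3 genes with the smallest p-value are named. Lists are described by counts and medians, without a set test. Values per library were not used, so the planned count model, replicate block and leaving out of replicates could not be run; some genes of these lists are not reported here. Positions, exon lengths and transcripts come from GENCODE M21 (GRCm38), which matched 9573 genes by symbol and 134 by older symbol. Alternatives tried were Bonferroni adjustment, a stricter adjusted p of 0.01, only genes reaching 16 CPM, position against the 301 genes nearest in mean expression, the median of 20 chromosomal neighbours, and lowess trends on length and GC (span 0.3). The Benjamini-Hochberg step was checked against statsmodels 0.14.6 (Python 3.11.15). The position against genes of like expression and the lowess trends were tested on shuffled fold changes with planted shifts or a planted trend. The other alternatives were not tested in this way. Promoter orientation was checked: the last 30 bases lay in a transcript of the gene for 29 of 33 promoters of members.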

Additional observations from a re-analysis of the deposited data

How the results depend on the processing

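No paired analysis was possible because the values are 1 comparison per gene and carry no replicate numbers; leaving out replicates was not run for the same reason. Of 18 sterol, 8 fatty acid and 6 regulatory genes, 16, 8 and 2 were called. Of these called genes 8, 5 and 1 passed Bonferroni adjustment, as did 23.8% of all genes. Outside the central 95% of genes of like expression lay 0, 1 and 1, against 5.69% of all genes. At an adjusted p under 0.01 the counts were 15, 7 and 1, with Pmvk, Scap and Fasn lost, against 41.3% of all genes. Among genes of at least 16 CPM all 14 sterol and 6 fatty acid genes left, and 2 of 5 regulators, were called. Of all genes at that level 51.7% were called. The sterol median was 0.22 among genes of at least 16 CPM, less genes of like expression and less the nearest genes, and 0.20 less the length and GC trend. The fatty acid median was 0.0891 less the 20 nearest genes. The median of regulators, -0.0037 as deposited, was 0.0076 among genes of at least 16 CPM, 0.0153 less genes of like expression, -0.0199 less the nearest genes and 0.0012 less the length and GC trend. The difference of the branch medians was 0.12 less genes of like expression, 0.13 less the nearest genes and 0.0151 less the trend; the cause was not tested. No called member changed sign in any of these settings. Leaving out members that share transcript stretches was added after the data were seen and left the sterol median at 0.20 and the fatty acid median at 0.15.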

Other observations

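Genes of lipid use and of membrane lipids lay outside the comparisons above. Of 19 measured genes of fatty acid oxidation, which breaks fatty acids down in mitochondria and peroxisomes, the authors' deposited table calls 8 lower and 2 higher, with a median of -0.07 and shares of 42.1% lower and 10.5% higher against 26.5% and 25.2% of all genes. The nuclear receptor gene Ppard stood at -0.47 and the acyl-CoA thioesterase gene Acot7 at -0.26 in the authors' deposited table. Of 20 measured genes of phospholipid and triacylglycerol synthesis 7 fell (35%, against 26.5% of all genes) and 5 rose (25%, against 25.2%). Their median was -0.03. Agpat2, an acyltransferase that makes phosphatidic acid, was at -0.54, the phosphatidate phosphatase gene Lpin1 at -0.60 and Lpcat1, which remodels phosphatidylcholine, at -0.35 in the authors' deposited table.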
